A study of Drosophila melanogaster with 12 samples.

Results

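The subunits of the oxidative phosphorylation complexes were followed in adult Drosophila melanogaster through 69 genes, of 11982 genes that a probe set of the array names alone. A gene belonged to the family when its symbol on the array platform began with ND-, UQCR-, COX or ATPsyn, or was SdhA, SdhB, SdhC or SdhD. Where a gene had several probe sets, the one with the highest mean log2 intensity over the 12 arrays stood for it. Complex I had 32 genes, complex II 3 (SdhB, SdhC and SdhD), complex III 6, complex IV 14 and complex V 14. By name, 18 of the 69 are paralogs of a subunit gene, with a symbol that ends in L or in L and a digit (called L paralogs here), and the other 51 are called primary subunit genes. No member was removed for a low value. Of the 69, 64 had a mean log2 intensity of at least 4, and ND-51L1, ND-51L2, ATPsynbetaL, UQCR-11 and ND-B12 lay below it and are called dim.

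Oxidative phosphorylation is the process by which mitochondria make most of the ATP of an aerobic cell. Complexes I and II take electrons from NADH and succinate, complex III passes them by way of cytochrome c to complex IV, which reduces oxygen, and complexes I, III and IV pump protons across the inner membrane. Complex V, the ATP synthase, lets the protons flow back and makes ATP. In flies the indirect flight muscle is packed with these complexes, and several subunits have a second gene that is known in Drosophila melanogaster for expression biased to the testis.

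Total RNA had been hybridised to 12 one-colour arrays, and each of the 4 groups had 3. The groups were DHR96 mutant flies on sucrose with 0.3% phenobarbital, DHR96 mutant flies on sucrose, wild-type flies on sucrose with 0.3% phenobarbital, and wild-type flies on sucrose. All flies, controls included, had been starved overnight before they were fed. DHR96 is a nuclear receptor encoded by Hr96, phenobarbital is a barbiturate used to induce detoxifying enzymes, and the wild type was Canton S. The arrays titled CS were read as Canton S and those titled E25, by elimination, as the mutant. The sources used here give neither the nature of the mutation, the sex and age of the flies, nor whether replicate arrays hold separate cultures, so p-values measure the spread between arrays, which may be technical.

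Hr96 itself had log2 intensities of 10.23, 10.18 and 10.30 in the mutant on phenobarbital, 10.06, 9.99 and 9.91 in the mutant on sucrose, 8.44, 8.30 and 8.85 in phenobarbital-fed wild type, and 8.44, 8.20 and 8.53 in wild type on sucrose. The arrays labelled mutant were therefore higher for the transcript of the mutated gene, with a fold of 3.27 on phenobarbital (adjusted p = 0.0012, limma) and of 3.03 on sucrose (adjusted p = 0.0022, limma). The sources used here do not place the probe set relative to the mutation, so this level cannot check the label, and "mutant" below means so labelled. The median intensity of an array was 38.5 to 47.5 over 18769 probe sets, and the number of arrays limits the precision. These are bulk samples, so fewer cells of a type and less RNA per cell cannot be told apart.

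The primary subunit genes were bright, and their mean over genes was lowest in the mutant on phenobarbital and highest in wild type on sucrose. The mean log2 intensity of the 51 genes was 11.98, 11.91 and 11.81 on the arrays of the mutant on phenobarbital, 11.97, 12.07 and 12.00 in the mutant on sucrose, 11.99, 12.29 and 12.14 in phenobarbital-fed wild type, and 12.65, 12.44 and 12.11 in wild type on sucrose. The mutant averaged 11.90 ± 0.083 on phenobarbital and 12.02 ± 0.050 on sucrose, and wild type 12.14 ± 0.15 on phenobarbital and 12.40 ± 0.27 on sucrose (SD, n = 3 each). The arrays of the mutant on sucrose were spread over 0.097 on the log2 scale, those of wild type on sucrose over 0.54. Gene by gene, the group mean was highest in wild type on sucrose for 49 of 51 primary genes and lowest in the mutant on phenobarbital for 48. Single arrays stood out. Of the 49 primary genes that were not dim, array 1 of wild type on sucrose was the highest of the 12 arrays for 46, and array 3 of the mutant on phenobarbital was the lowest for 41.

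The order was repeated in each complex. For the 27 primary genes of complex I the array means were 11.25, 11.18 and 11.06 in the mutant on phenobarbital, 11.23, 11.32 and 11.27 in the mutant on sucrose, 11.25, 11.60 and 11.43 in phenobarbital-fed wild type, and 12.00, 11.76 and 11.37 in wild type on sucrose. For the 10 primary genes of complex V they were 13.67, 13.59 and 13.56 in the mutant on phenobarbital, 13.65, 13.78 and 13.66 in the mutant on sucrose, 13.68, 13.93 and 13.82 in phenobarbital-fed wild type, and 14.25, 14.04 and 13.84 in wild type on sucrose. In both complexes the lowest wild-type sucrose array lay above every mutant array, by 0.043 in complex I and 0.060 in complex V on the log2 scale. The same held for complex II, by 0.072, and complex III, by 0.013. In complex IV that array and the highest mutant array were level, with a margin of -8e-04.

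**Figure D1:**
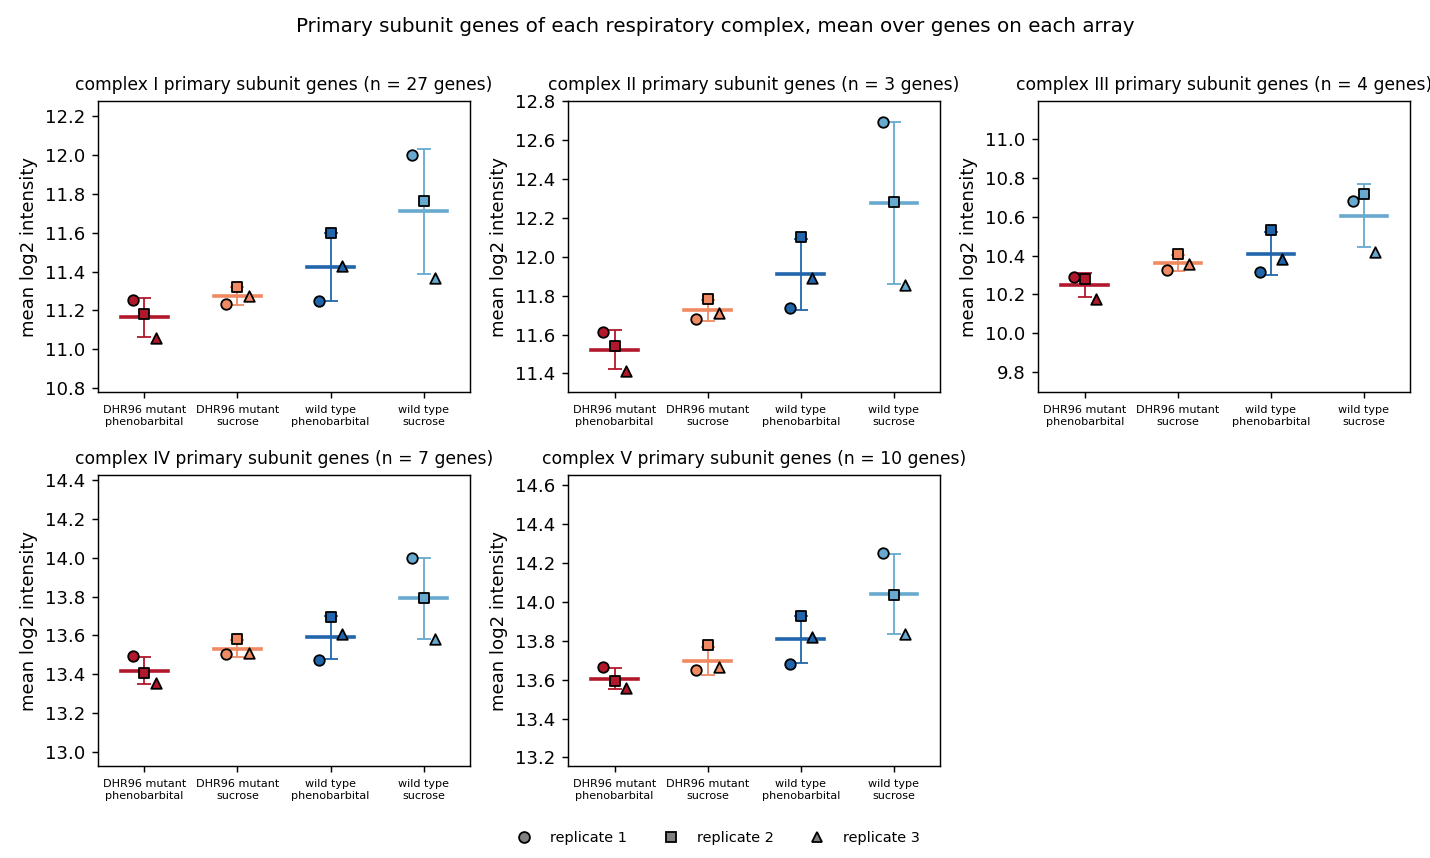
Mean log2 intensity over the primary subunit genes of each respiratory complex, by array (points, with a shape for each replicate number), with the group mean (line) and SD (bar), n = 3 arrays a group. Groups run from the DHR96 mutant on phenobarbital at the left to wild type on sucrose at the right, and each panel has its own vertical scale. In complex V the mutant arrays sit between 13.56 and 13.78 and the wild-type sucrose arrays between 13.84 and 14.25.

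On sucrose, the mutant lay below wild type for 50 of 51 primary subunit genes, with a median log2 difference of -0.41 and a range of -1.14 to 0.05, where 62.5% of all probe sets lay below 0. No member passed an adjusted p under 0.05 (limma, Benjamini and Hochberg over all probe sets), in a comparison that called 0.314% of all 18769 probe sets at any fold and 0.213% at 1.5-fold or more. At an unadjusted p under 0.05, 45 primary genes were lower and 0 higher, against 7.29% of all probe sets lower. Of the 1088 probe sets with a mean log2 intensity of at least 11, 204 were lower at that threshold. All 3 mutant arrays lay below all 3 wild-type arrays for 33 of 51 primary genes, against 7.32% of all probe sets and 16.7% of those with a mean log2 intensity of at least 11. The median log2 difference was -0.45 in complex I, -0.54 in complex II, -0.24 in complex III, -0.28 in complex IV and -0.33 in complex V, against -0.0051 over all probe sets and 0.021 over those of at least 11. Without array 1 of wild type on sucrose it was -0.29 in complex I and -0.35 in complex II. The primary median was -0.25 without that array and -0.54 without array 3 of that group, and without array 3 limma called 14 members. The share of all probe sets called in that fit was not computed.

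Complex V was the one in which all 10 primary genes had groups that did not overlap. ATPsynC, the subunit of the rotating membrane ring, had 14.12, 14.33 and 14.12 in the mutant on sucrose, against 14.77, 14.58 and 14.43 in wild type on sucrose, a log2 difference of -0.40 ± 0.09 (SE; 1.32-fold lower, adjusted p = 0.13, limma). ATPsynbeta, the catalytic subunit, had 14.18, 14.31 and 14.05 in the mutant and 14.85, 14.53 and 14.43 in wild type, a difference of -0.42 ± 0.11 (adjusted p = 0.19, limma). The highest mutant array was below the lowest wild-type array for both genes. ATPsyngamma, of the central stalk, differed by -0.33 ± 0.10, and ATPsynO, of the peripheral stalk, by -0.32 ± 0.10 (adjusted p = 0.27 for each, limma). The other 6 lay between -0.42 (ATPsynD, peripheral stalk) and -0.23 (ATPsynF, membrane part).

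In complex I, 17 of 27 primary genes had sucrose groups that did not overlap. ND-75, the largest iron-sulfur subunit of the electron-input arm, had 11.13, 11.26 and 11.13 in the mutant on sucrose, against 12.07, 11.84 and 11.35 in wild type on sucrose. Its difference was -0.58 ± 0.16 (adjusted p = 0.22, limma). ND-51, which binds NADH and carries the flavin, differed by -0.41 ± 0.16, and ND-20, which holds the last iron-sulfur cluster before ubiquinone, by -0.47 ± 0.14. ND-MLRQ, the brightest probe set of the complex by this naming (its mammalian counterpart is now assigned to complex IV), had 14.39, 14.53 and 14.46 in the mutant on sucrose, against 14.82, 14.80 and 14.55 in wild type on sucrose. ND-B8, an accessory subunit, had the lowest value of all members, -1.14 ± 0.40 (2.21-fold lower, adjusted p = 0.35, limma). Its arrays read 5.45, 5.67 and 5.75 in the mutant on sucrose, against 7.17, 7.33 and 5.80 in wild type on sucrose. Array 3 of wild type lay 0.057 above the highest mutant array, and the intensities of ND-B8 lie near the dim limit of 4.

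Complex II was lower in the same comparison by -0.63 ± 0.19 for SdhB, the iron-sulfur subunit, -0.54 ± 0.17 for SdhC and -0.49 ± 0.19 for SdhD, the 2 membrane anchors. SdhB had 11.58, 11.65 and 11.62 in the mutant on sucrose, against 12.70, 12.20 and 11.83 in wild type on sucrose. SdhC had 12.29, 12.51 and 12.34 in the mutant on sucrose, against 13.28, 12.97 and 12.50 in wild type on sucrose. The groups of SdhB did not overlap, and those of SdhC did, with a margin of -0.0087. SdhA, the flavoprotein of the complex, had no probe set that names it alone and is not analysed here.

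In complex III, UQCR-14, a small accessory subunit, had 13.71, 13.83 and 13.73 in the mutant on sucrose, against 14.43, 14.20 and 13.86 in wild type on sucrose, a difference of -0.41 ± 0.13. UQCR-Q, a small subunit near the ubiquinone site, had 11.17, 11.16 and 11.36 in the mutant and 11.32, 11.51 and 11.10 in wild type, and its groups overlapped (-0.08 ± 0.12). In complex IV, COX7B, a small nuclear-encoded subunit, had 13.74, 13.77 and 13.75 in the mutant and 14.12, 14.08 and 13.89 in wild type. It had the smallest p of the 69 genes in this comparison (difference -0.28 ± 0.06, unadjusted p = 0.0016, adjusted p = 0.13, limma). COX5A had 14.01, 14.10 and 14.01 in the mutant on sucrose, against 14.64, 14.35 and 14.13 in wild type on sucrose. COX7A was the 1 primary gene above 0, at 0.05 ± 0.03 (adjusted p = 0.75, limma), with 13.36, 13.30 and 13.29 in the mutant and 13.23, 13.26 and 13.30 in wild type.

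**Figure D2:**
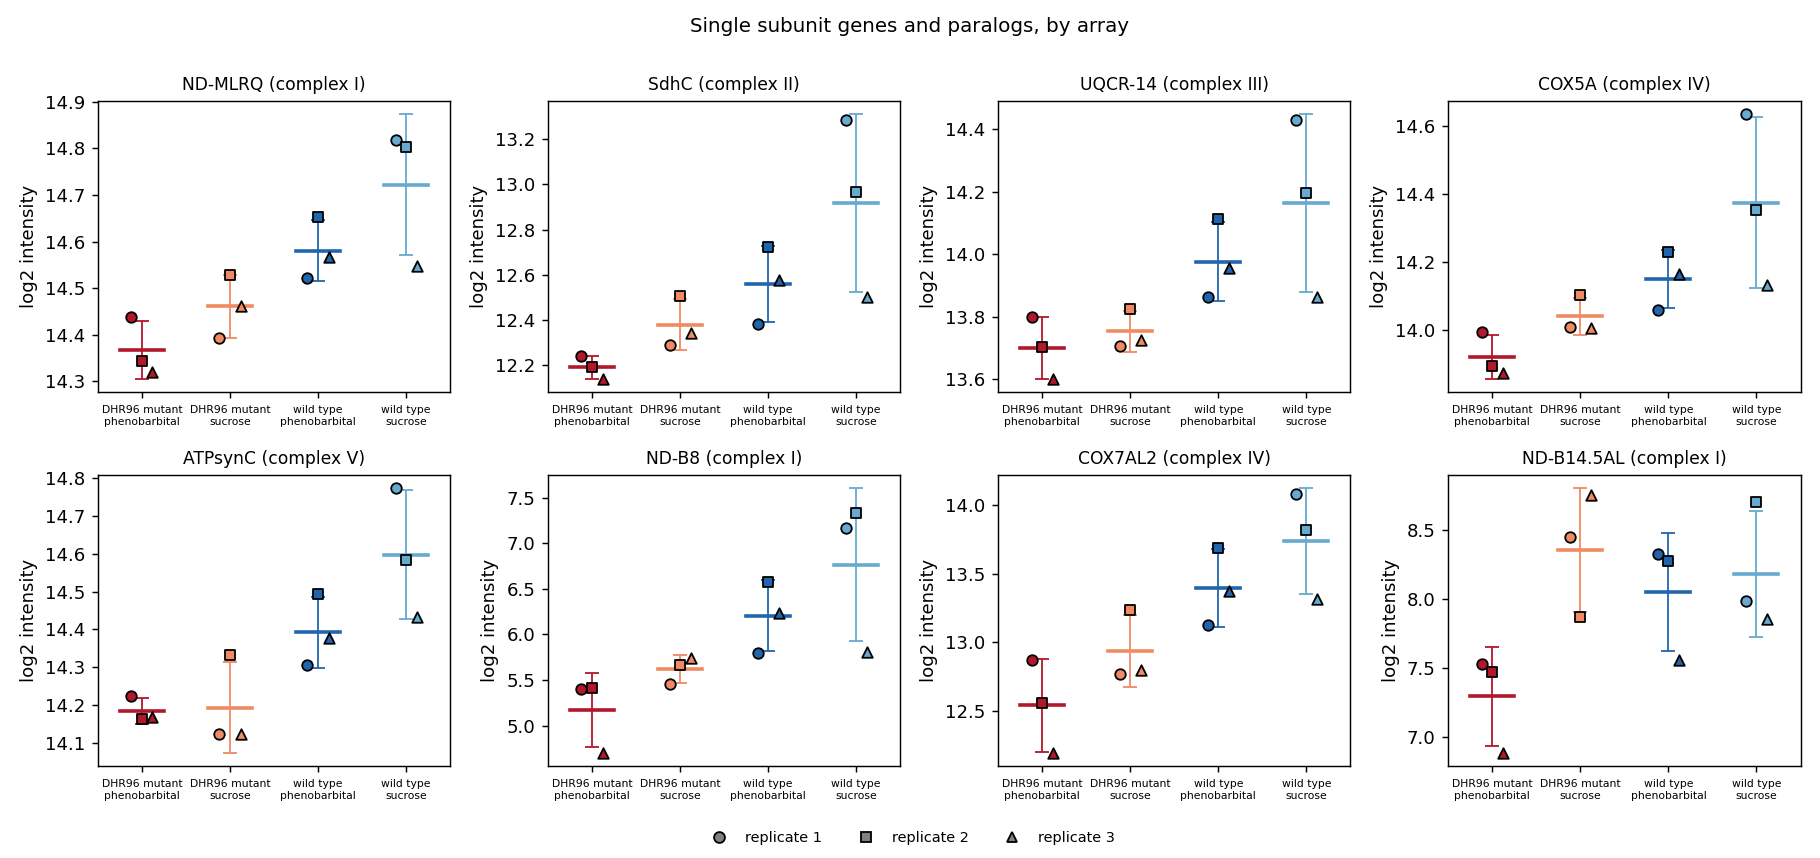
Log2 intensity of 8 members on each array (points, with a shape for each replicate number), with group mean (line) and SD (bar), n = 3 arrays a group. The brightest gene of each complex is shown with ND-B8, COX7AL2 and ND-B14.5AL, and each panel has its own vertical scale. ATPsynC lies between 14.12 and 14.33 in the mutant on sucrose and between 14.43 and 14.77 in wild type on sucrose, while for ND-B14.5AL the mutant on phenobarbital is the group that lies apart.

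On phenobarbital the mutant again lay below wild type for 49 of 51 primary genes, with a median log2 difference of -0.22 and a range of -1.03 to 0.12, where 64.3% of all probe sets lay below 0. No member was called by limma, in a comparison that called 0.133% of all probe sets at any fold and 0.117% at 1.5-fold or more. At an unadjusted p under 0.05, 8 primary genes were lower and 1 was higher, against 4.29% of all probe sets lower and 7.17% higher. Of the 1088 probe sets with a mean log2 intensity of at least 11, 78 were lower and 144 higher at that threshold. The groups did not overlap, with the mutant lower, for 24 primary genes. Here 41.5% of all probe sets met that condition but 11.4% of those with a mean log2 intensity of at least 11, to which most primary genes belong. The complex medians were -0.23 (I), -0.38 (II), -0.19 (III), -0.23 (IV) and -0.19 (V), against -0.021 over all probe sets and 0.025 over those of at least 11. Without array 2 of wild type on phenobarbital they were -0.15 in complex I and -0.10 in complex III.

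Arrays of the same replicate number deviated together in these 2 groups, so mutant and wild type on phenobarbital were also compared in a fit with the number as a block. This block was chosen after seeing the data, from deviations on these same arrays, so its p-values are not those of a planned test. The fit called 6 of the 69 members, all lower and all L paralogs, and 0 of 51 primary genes, where it called 2.02% of all probe sets lower. The 6 were ND-B14.5AL (-0.75 ± 0.04, SE, adjusted p = 0.036, limma), COX5BL (-0.67 ± 0.04, adjusted p = 0.041), ATPsynGL (-0.48 ± 0.04), COX4L (-0.49 ± 0.04), UQCR-14L (-0.47 ± 0.04) and ND-24L (-0.45 ± 0.04), of which ND-B14.5AL and COX5BL reached 1.5-fold. Averaged over the 18 paralogs, the mutant array minus the wild-type array was -0.472, -0.576 and -0.524 in pairs 1, 2 and 3. This fit has 2 residual degrees of freedom, and it called 0 members when any 1 pair was left out.

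COX7B had 13.67, 13.63 and 13.56 in the mutant on phenobarbital, against 13.83, 13.97 and 13.86 in wild type on phenobarbital, with a difference of -0.27 ± 0.06 that had the smallest p of the family (adjusted p = 0.24, limma). All 3 genes of complex II had groups that did not overlap. SdhC had 12.24, 12.19 and 12.14 in the mutant and 12.38, 12.72 and 12.58 in wild type, SdhB differed by -0.38 ± 0.19 and SdhD by -0.41 ± 0.19. ND-B8 had 5.40, 5.41 and 4.70 in the mutant on phenobarbital, against 5.80, 6.58 and 6.24 in wild type on phenobarbital, with groups apart and a difference of -1.03 ± 0.40 (adjusted p = 0.37, limma).

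COX7A again went the other way. It had 13.32, 13.29 and 13.31 in the mutant on phenobarbital, against 13.12, 13.19 and 13.25 in wild type on phenobarbital. This was the 1 member with every mutant array above every wild-type array on that diet, where 9.94% of all probe sets were so (difference 0.12 ± 0.03, 1.09-fold higher, adjusted p = 0.35, limma). For UQCR-14 the mutant arrays read 13.80, 13.70 and 13.60, against 13.86, 14.11 and 13.95 in wild type, and for ATPsynC 14.22, 14.16 and 14.17, against 14.31, 14.49 and 14.38. Both genes had groups that did not overlap.

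In the mutant, phenobarbital gave values below sucrose for 49 of 51 primary genes, but the size was small, with a median log2 change of -0.09 and a range of -0.45 to 0.09, where 38.9% of all probe sets lay below 0. No member was called by limma, in a comparison that called 6.18% of all probe sets at any fold and 4.62% at 1.5-fold or more. Of the 1088 probe sets with a mean log2 intensity of at least 11, 526 lay below 0. At an unadjusted p under 0.05, 224 of these and 7.89% of all probe sets were lower. The 1 primary gene that was lower at that threshold was UQCR-Q. Its arrays read 10.97, 10.92 and 10.78 in the mutant on phenobarbital and 11.17, 11.16 and 11.36 in the mutant on sucrose (-0.34 ± 0.12, adjusted p = 0.19, limma). The groups did not overlap, phenobarbital lower, for 16 of 51 primary genes, against 11.1% of all probe sets and 25.6% of those with a mean log2 intensity of at least 11. COX7B was such a gene, with a change of -0.14 ± 0.06, while the groups of ATPsynC overlapped (-0.01 ± 0.09). The primary median was -0.06 without array 3 of the mutant on phenobarbital.

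In wild type, phenobarbital values lay below sucrose for 50 of 51 primary genes, with a median log2 change of -0.25, where 37.3% of all probe sets lay below 0. Again no member was called by limma, where 5.8% of all probe sets were at any fold and 4.27% at 1.5-fold or more. At an unadjusted p under 0.05, 15 primary genes were lower and 0 higher, against 7.88% of all probe sets lower. Of the 1088 probe sets with a mean log2 intensity of at least 11, 616 lay below 0 and 227 were lower at that threshold. The groups overlapped for every one of the 69 members, where 7.17% of all probe sets, and 17% of those with a mean log2 intensity of at least 11, had phenobarbital arrays all below sucrose arrays. For the primary genes most of the overlap lay with 1 array. Without array 3 of wild type on sucrose, 48 of them and 2 of 18 paralogs had groups that did not overlap (11.3% of all probe sets), the primary median was -0.39, and limma called 11 members, while without array 1 of that group the median was -0.12. How many of all probe sets limma called without array 3 was not computed.

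ATPsynE, of the membrane part of the ATP synthase, had 13.57, 13.72 and 13.63 in wild type on phenobarbital, against 14.06, 13.94 and 13.71 in wild type on sucrose (-0.26 ± 0.08, adjusted p = 0.14, limma). ATPsyndelta, of the central stalk, had a change of -0.39 ± 0.14 and ATPsynO one of -0.27 ± 0.10. ND-13B, an accessory subunit of complex I, had 9.88, 10.27 and 10.12 in wild type on phenobarbital, against 10.95, 10.71 and 10.09 in wild type on sucrose (-0.49 ± 0.20), with array 3 on sucrose inside the phenobarbital range. For SdhD the change was -0.40 ± 0.19, with sucrose arrays (12.09, 11.68 and 11.24) that were spread over more than the change itself. The mutant and wild-type sucrose arrays serve both as controls for phenobarbital and in the genotype comparison on sucrose, so the comparisons are not independent of each other.

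The phenobarbital change in the mutant minus that in wild type was above 0 for 49 of 51 primary genes, with a median of 0.14, where 55.7% of all probe sets lay below 0. Bright probe sets mostly lay above 0 as well. Of the 1088 with a mean log2 intensity of at least 11, 726 did, with a median of 0.049 over the 1088. No member had an unadjusted p under 0.05 for this difference (2.89% of all probe sets did above 0 and 0.437% below), the smallest adjusted p was 0.84 (limma), and 0% of all probe sets were called. The median of the difference was 0.011 without array 1 and 0.29 without array 3 of wild type on sucrose, and 0.078 without array 1 and 0.23 without array 2 of wild type on phenobarbital. Centring the arrays on bright probe sets gave 0.084. Over both genotypes together, where limma called 9.78% of all probe sets at any fold and 5.7% at 1.5-fold or more, the mean phenobarbital change was below 0 for 68 of 69 members and 34.4% of all probe sets. It gave no member a call, with 21 members lower at an unadjusted p under 0.05 (10.4% of all probe sets) and the smallest adjusted p at 0.063 (UQCR-Q, -0.30 ± 0.09, limma). Of the 1088 probe sets with a mean log2 intensity of at least 11, 572 lay below 0 and 306 were lower at that unadjusted threshold. Of the 51 primary genes, 15 were lower at that threshold. Without array 3 of wild type on sucrose 19 members were called, in a fit for which the share of all probe sets called was not computed.

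**Figure D3:**
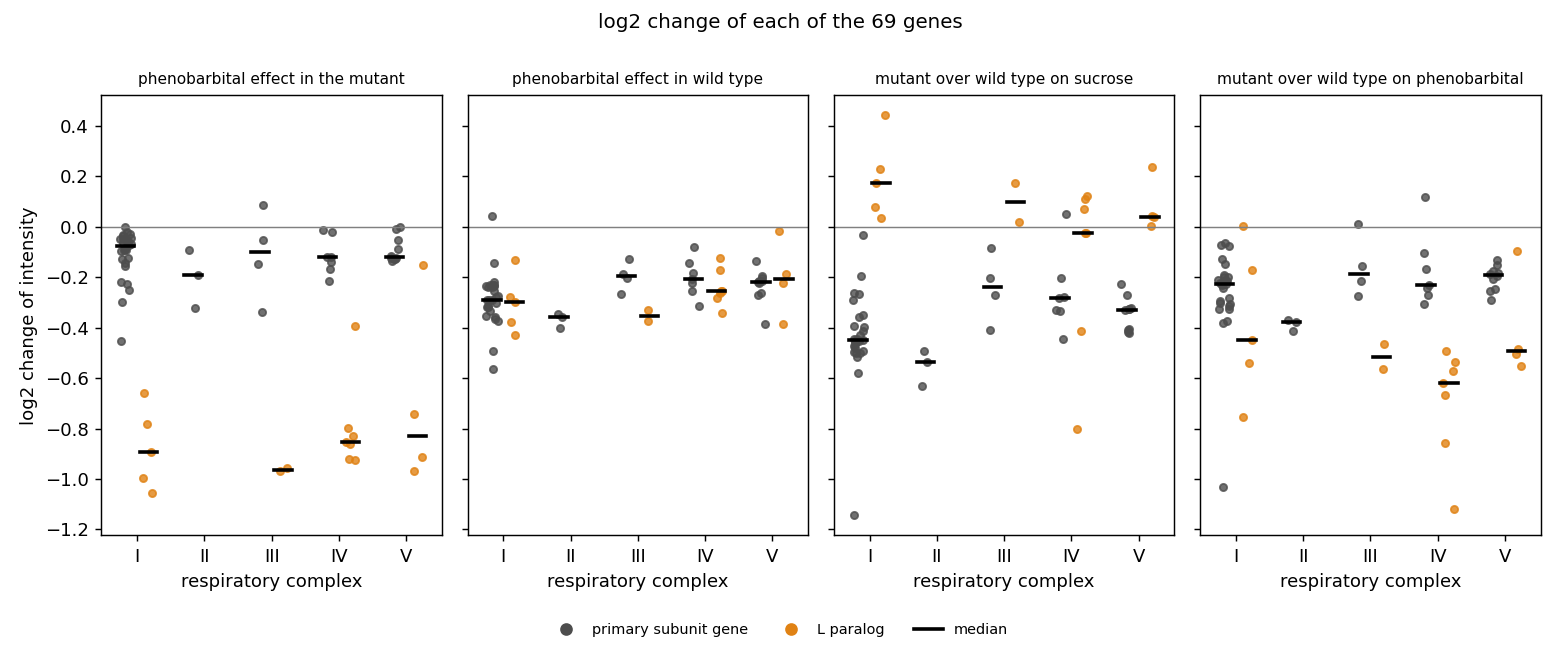
Log2 difference of each of the 69 genes (points, sorted by complex, grey for primary subunit genes and orange for L paralogs) in the 4 pairwise comparisons, with the median of each set (line). The first 2 panels are phenobarbital over sucrose and the last 2 are mutant over wild type. On sucrose the primary genes lie below 0 (median -0.41) and the paralogs around 0 (median 0.06), while for phenobarbital in the mutant the primary genes lie near 0 (median -0.09) and the paralogs lower (median -0.88).

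The 18 L paralogs, like the primary genes, had their lowest group mean in the mutant on phenobarbital, but their sucrose groups were about level. Their mean log2 intensity was 7.32, 7.18 and 6.68 in the mutant on phenobarbital, 7.85, 7.41 and 8.36 in the mutant on sucrose, 7.80, 7.75 and 7.20 in phenobarbital-fed wild type, and 7.59, 8.43 and 7.52 in wild type on sucrose. The mutant averaged 7.06 ± 0.34 on phenobarbital and 7.87 ± 0.48 on sucrose, and wild type 7.58 ± 0.33 on phenobarbital and 7.85 ± 0.50 on sucrose (SD, n = 3 each). The mutant on phenobarbital was lowest for 17 of 18 paralogs, and the mutant on sucrose was highest for 14. Array 2 of wild type on sucrose was the highest array for 10 of the 15 paralogs that were not dim. Their spread within groups was larger than that of the primary genes, with a median SD over genes of 0.480 on the log2 scale, against 0.178 for the primary genes.

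In the mutant, phenobarbital values lay below sucrose for 18 of 18 paralogs, with a median log2 change of -0.88 and a range of -1.06 to -0.15. None was called by limma (6.18% of all probe sets were), 9 had an unadjusted p under 0.05 (7.89% of all probe sets did in that direction), and 9 had groups that did not overlap (11.1% of all probe sets). ND-B14.5AL, a paralog of a complex I accessory subunit, had 7.53, 7.48 and 6.89 in the mutant on phenobarbital, against 8.45, 7.87 and 8.75 in the mutant on sucrose (-1.06 ± 0.33, 2.08-fold lower, adjusted p = 0.13, limma). Its groups did not overlap. ND-20L had 7.02, 7.10 and 6.12 in the mutant on phenobarbital and 7.49, 7.36 and 8.37 in the mutant on sucrose. UQCR-14L had 7.81, 7.72 and 6.94 on phenobarbital and 8.42, 8.05 and 8.92 on sucrose, and its groups were apart as well. The change was -0.93 ± 0.36 for COX5BL, -0.91 ± 0.35 for ATPsynGL and -0.85 ± 0.34 for COX4L. The median of the paralogs was -1.12 without array 2 of the mutant on sucrose, where limma called 2 members, and -0.62 without array 3 of that group. How many of all probe sets limma called without array 2 was not computed.

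In wild type the same diet comparison gave a median of -0.27 over the paralogs, with overlapping groups for every paralog and none at an unadjusted p under 0.05. The median became 0.012 without array 2 of wild type on sucrose, -0.41 without array 1 and -0.42 without array 3 of that group, and -0.055 without array 3 of wild type on phenobarbital. ND-B14.5AL had 8.32, 8.27 and 7.56 in wild type on phenobarbital, against 7.99, 8.70 and 7.86 in wild type on sucrose, and its groups overlapped. On sucrose, 14 of 18 paralogs were higher in the mutant than in wild type, but their median was 0.06 and changed sign with the arrays used. It was -0.20 without array 3 and 0.29 without array 2 of the mutant on sucrose, and -0.077, 0.40 and -0.060 without array 1, 2 and 3 of wild type on sucrose. On phenobarbital, 17 of 18 lay below wild type in the mutant, with a median of -0.54, or -0.29 without array 3 of the mutant on phenobarbital. The interaction, the phenobarbital change in the mutant minus that in wild type, was below 0 for 18 of 18 with a median of -0.61, and the smallest adjusted p of any member was 0.84 (limma). That median was -0.32 without array 3 of the mutant on either diet.

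COX7AL2, a paralog of COX7A, had values below wild type in the mutant on both diets. Its arrays read 12.87, 12.56 and 12.19 in the mutant on phenobarbital, 12.77, 13.24 and 12.80 in the mutant on sucrose, 13.12, 13.69 and 13.37 in phenobarbital-fed wild type, and 14.08, 13.82 and 13.32 in wild type on sucrose. The mutant lay below wild type by -0.80 ± 0.25 on sucrose (adjusted p = 0.29, limma) and by -0.86 ± 0.25 on phenobarbital (adjusted p = 0.36, limma), with groups that did not overlap on either diet. It was the 1 of 18 paralogs whose sucrose groups did not overlap, with the mutant lower, against 7.32% of all probe sets. On phenobarbital 41.5% of all probe sets had every mutant array below every wild-type array. This held for 842 of the 10341 with a mean log2 intensity of at least 4, and for 11.4% of those of at least 11. COX7AL2, COX7AL and COX7A are measured by separate probe sets, and COX7A had differences of 0.05 and 0.12 on the 2 diets. COX6AL2, a paralog of levy, the fly subunit VIa, had 6.30, 6.08 and 6.09 in the mutant on phenobarbital, against 7.68, 7.52 and 6.62 in wild type on phenobarbital, with groups that did not overlap (-1.12 ± 0.40, adjusted p = 0.37, limma).

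Respiratory chain genes whose names fall outside the rule were mostly lower in the mutant too. The 10 of 13 that were measured lay below 0 in the mutant against wild type on both diets, with medians of -0.30 on phenobarbital and -0.31 on sucrose. None was called by limma in any of the 4 comparisons. The nearest was blw, the alpha subunit of the ATP synthase, with 14.22, 14.40 and 14.19 in the mutant on sucrose, against 14.62, 14.68 and 14.55 in wild type on sucrose (-0.35 ± 0.06, adjusted p = 0.057, limma). The change of blw with phenobarbital was -0.0049 ± 0.058 in the mutant and -0.21 ± 0.06 in wild type (adjusted p = 0.083, limma). Cyt-c1, which carries the haem of complex III that reduces cytochrome c, differed by -0.42 ± 0.13 on sucrose, and RFeSP, the Rieske iron-sulfur protein, by -0.52 ± 0.17. SdhBL, SdhAL and knon, paralogs of subunits by name or known role, had phenobarbital values in the mutant of -0.81 ± 0.36 (SdhBL), -0.64 ± 0.50 (SdhAL) and -0.89 ± 0.37 (knon), and sun was dim.

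Of all probe sets, limma called 4.24% higher and 1.94% lower with phenobarbital in the mutant, and 3.04% higher and 2.76% lower in wild type. Sirup, an assembly factor of complex II, rose in the mutant by 0.90 ± 0.11 (adjusted p = 0.0012, limma) and in wild type by 0.84 ± 0.11 (adjusted p = 0.0020), and it was the 1 called among 11 assembly factors. In the citrate cycle and pyruvate dehydrogenase list of 16 measured genes, 4 were called higher and 1 lower in the mutant, and 3 higher and 1 lower in wild type. Idh, an NADP-dependent isocitrate dehydrogenase, rose by 0.84 ± 0.05 in the mutant (adjusted p = 1.2e-05) and 0.78 ± 0.05 in wild type (adjusted p = 2.4e-05). The lower call was muc, a subunit of pyruvate dehydrogenase, by -0.38 ± 0.09 in the mutant (adjusted p = 0.043) and -0.45 ± 0.09 in wild type (adjusted p = 0.021). Among 12 carriers and uncoupling proteins, colt, the carnitine-acylcarnitine carrier, was called higher in both genotypes, and Bmcp was called higher in wild type. Among 10 regulators, ERR, the oestrogen-related receptor, rose in the mutant by 0.53 ± 0.07 (adjusted p = 0.0012, limma).

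The 69 measured mitochondrial ribosomal proteins, also encoded in the nucleus, were above wild type in the mutant for 68 genes on phenobarbital and 49 on sucrose. Of the 10341 probe sets with a mean log2 intensity of at least 4, 6126 lay above 0 on phenobarbital and 5633 on sucrose. The median difference of the ribosomal proteins, mutant minus wild type, was 0.07 on sucrose and 0.23 on phenobarbital. Their median change with phenobarbital was 0.03 in the mutant and -0.12 in wild type. None was called by limma without the block (with it 1, mRpS18A, higher). In the mutant on phenobarbital 22 were higher at an unadjusted p under 0.05, against 7.17% of all probe sets and 1286 of the 10341. Without the block, no genotype comparison gave a call in any of the pathway lists. With it, on phenobarbital, SdhBL, SdhAL and the porin paralog Porin2 were called lower in the mutant. Genes of the mitochondrial genome are not analysed here.

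Markers of the tissues that could carry these transcripts differed between groups as well. Of 20 measured flight and body muscle markers, none dim, the summed intensity ranged over arrays from 159900 to 179600 in the mutant on phenobarbital, 183300 to 196800 in the mutant on sucrose, 182600 to 213700 in wild type on phenobarbital, and 215100 to 268900 in wild type on sucrose. In the mutant against wild type 19 of 20 lay below 0 on sucrose, with a median of -0.23, and 14 of 20 on phenobarbital, with a median of -0.03. The differences were larger for 4 genes known for expression in flight muscle, singled out after their values were seen. Act88F, the flight muscle actin, had 11.30, 12.86 and 11.07 in the mutant on sucrose, against 14.61, 14.19 and 13.41 in wild type on sucrose (-2.32 ± 0.50, adjusted p = 0.12, limma). Flightin, encoded by fln, differed by -2.90 ± 0.56 (adjusted p = 0.091). TpnC4, a flight muscle troponin C, differed by -2.64 ± 0.70 and Strn-Mlck by -1.97 ± 0.42. On phenobarbital these 4 differed by -2.19 (Act88F), -2.37 (TpnC4), -2.52 (fln) and -2.24 (Strn-Mlck), and none was called on either diet. With phenobarbital, 5 muscle markers (Act87E, TpnC73F, Mlc1, Tm2 and Argk1) were called lower in wild type, where 2.76% of all probe sets were, and none in the mutant. TpnC73F was the 1 of the 5 that reached 1.5-fold (-0.70 ± 0.13). The part of muscle RNA in the primary subunit values was not tested.

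Testis markers moved with the L paralogs. Of 24 measured, can, nht, aly and comr were dim on every array. Their summed intensity ranged from 21760 to 34720 in the mutant on phenobarbital, 37920 to 62340 in the mutant on sucrose, 29690 to 48370 in wild type on phenobarbital, and 36470 to 61390 in wild type on sucrose. The marker means were 7.95, 7.85 and 7.43 in the mutant on phenobarbital, 8.32, 7.99 and 8.60 in the mutant on sucrose, 8.29, 8.17 and 7.78 in phenobarbital-fed wild type, and 7.98, 8.64 and 8.10 in wild type on sucrose. Array 2 of wild type on sucrose was the highest and array 3 of the mutant on phenobarbital the lowest, for the markers and for the paralogs. These extremes were not particular to them. The same arrays were highest and lowest for the muscle markers (13.35 and 12.23) and the photoreceptor markers (11.87 and 11.16). They were so for the median of all probe sets as well (5.57 and 5.27). The median change with phenobarbital of the 24 testis markers was -0.68 in the mutant and -0.15 in wild type, and the mutant against wild type was 0.08 on sucrose and -0.44 on phenobarbital. Among them mia was called lower with phenobarbital in wild type (-0.82 ± 0.14, adjusted p = 0.0096, limma). In the fit with the replicate block, 8 of the 24 were called lower in the mutant on phenobarbital, against 2.02% of all probe sets. The part of testis RNA in the paralog values was not tested.

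**Figure D4:**
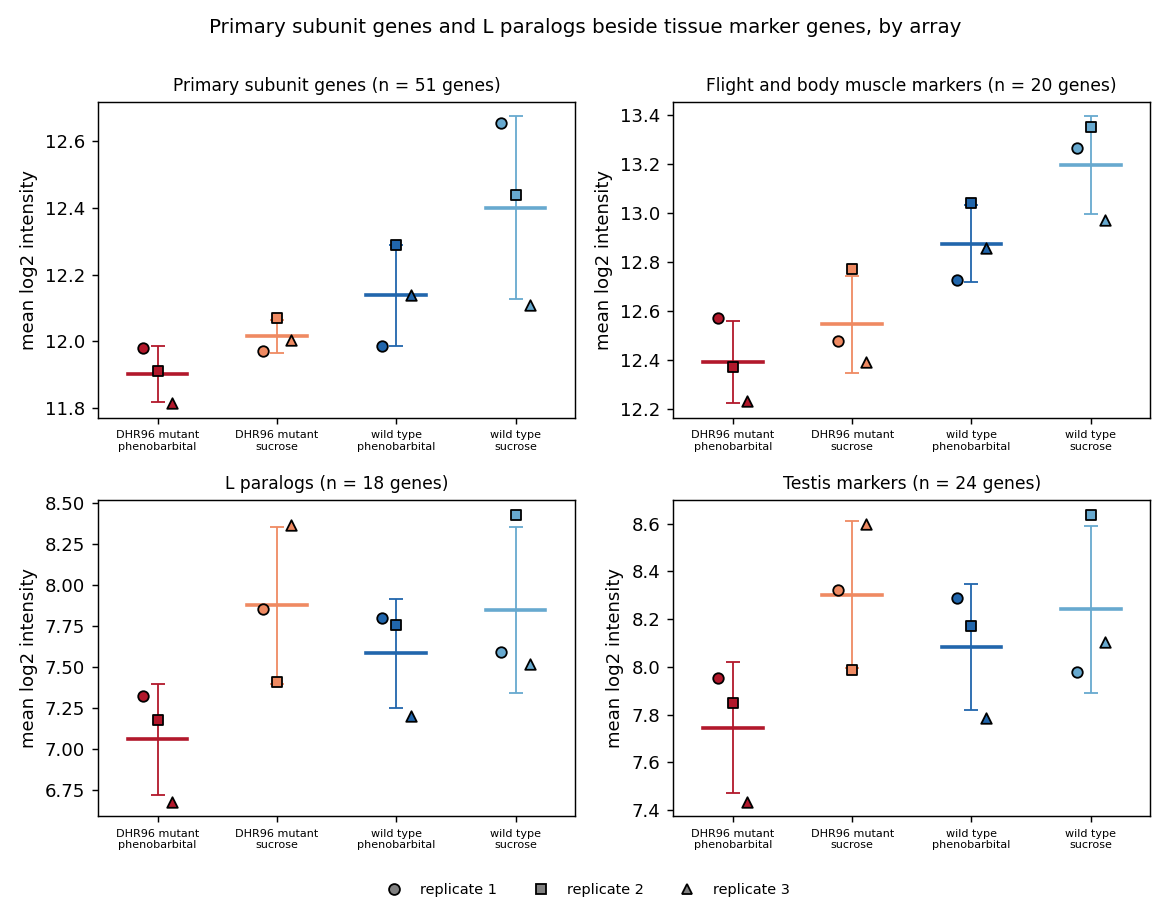
Mean log2 intensity by array of the 51 primary subunit genes, the 20 flight and body muscle markers, the 18 L paralogs and the 24 testis markers (points, with a shape for each replicate number), with group mean (line) and SD (bar), n = 3 arrays a group, each panel on its own scale. By group mean, primary genes and muscle markers are lowest in the mutant on phenobarbital and highest in wild type on sucrose. Between genotypes on phenobarbital the muscle markers had a mean difference of -0.48 but a median of -0.03, where the primary median was -0.22. Paralogs, testis markers and muscle markers share their highest array, array 2 of wild type on sucrose, and their lowest, array 3 of the mutant on phenobarbital. The primary genes share that lowest array but are highest on array 1 of wild type on sucrose (12.65).

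The remaining marker lists had calls with diet in most cases, against 1.94% of all probe sets called lower and 4.24% higher in the mutant, and 2.76% lower and 3.04% higher in wild type. Of 16 accessory gland markers, 8 were called lower with phenobarbital in the mutant and 4 in wild type, with medians of -1.24 and -0.99. Of 19 ovary and female fat body markers, 3 were called lower in each genotype, with medians of -0.98 in the mutant and -0.82 in wild type, and the mutant against wild type had a median of 0.55 on phenobarbital and 1.01 on sucrose with no call. Of 12 gut markers, 5 were called lower and 2 higher with phenobarbital in each genotype, and mag was called lower in the mutant on sucrose. The 5 fat body markers had Lsp2 called higher and FASN1 called lower with phenobarbital in the mutant, FASN1 lower and apolpp higher in wild type, and Lsp2 higher in the mutant than in wild type on phenobarbital. The 5 photoreceptor markers had no call.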

How the data were processed

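The deposited values were normalized intensity values for each probe set of a one-colour array, made by the authors with GCRMA, per the submitters' processing notes, with its version not given in the sources used here. They were read as linear from their range, and the deposited intensities were converted to log2 here with no further scaling. All 18769 probe sets were tested, of which 13647 name 1 gene, 402 several and 4720 none. Members were named by the platform table, and all 69 Entrez symbols were unchanged in the current gene table. 3 genes named only by probe sets of several genes (ATPsynG, COX6B and ND-AGGG) were left out, and 15 symbols of the rule with no probe set here were not analysed.

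One model over the 12 arrays, with a mean for each group, was fitted in R 4.3.3 by limma 3.58.1 (8 residual degrees of freedom). A gene was called at an adjusted p under 0.05 at any fold, or with a minimum of 1.5-fold as well. Dim means a mean log2 under 4, an intensity of 16. Scripts were tested on simulated data. Alternatives were the prior, quantile normalization, centring, removal of dim probe sets, weighted arrays, a replicate block, leaving out each array, only the 2 groups compared, and the mean over probe sets. Centring on bright probe sets, adding probe sets of several genes, and the block on the 2 phenobarbital groups alone were chosen after seeing the data. That block was used because deviations from the group means of same-number arrays, numbered in the titles, correlated at 0.312, 0.345 and 0.695 between these 2 groups, the 1 pair of groups with all 3 above 0.1. Figures used Python 3.11.15, pandas 2.3.3, numpy 2.4.6 and matplotlib 3.10.9.

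Members and gene lists were chosen with earlier results of these data known. The rule for members given by array was the brightest of each complex and the 2 largest rises and falls of each comparison among those not dim, with paralogs beside their member. Others were added after their values were seen. The pathway lists were mitochondrial ribosomal proteins, respiratory chain genes outside the rule, assembly factors, citrate cycle, carriers, regulators and the mitochondrial genome, and the marker lists were testis, accessory gland, ovary, muscle, gut, fat body and photoreceptor. Promoter and protein sequences named in that rule were not used here.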

Additional observations from a re-analysis of the deposited data

How the results depend on the processing

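With no member called at first, other settings mattered by adding calls. The share of all probe sets called was not computed for the settings below, so these counts do not set the members apart from other genes. Array weights gave 31 members called at any fold and 13 at 1.5-fold for phenobarbital in the mutant, 8 at any fold for the mutant against wild type on sucrose, 1 on phenobarbital, and 10 at any fold and 3 at 1.5-fold for the mean phenobarbital effect. The weight estimate put 104.4 on array 1 of the mutant on sucrose, against 0.282 to 6.37 on the others. Quantile normalization gave 1 call for phenobarbital in the mutant, 1 in wild type, 1 for the genotype on phenobarbital and 6 for the mean phenobarbital effect. A fit on only the 2 groups gave 1 for phenobarbital in the mutant. For the mean effect, leaving out dim probe sets gave 1 and centring on bright probe sets, chosen after seeing the data, gave 9. The cause was not tested. Leaving out each array gave 0 to 2 calls at any fold and 0 to 2 at 1.5-fold for phenobarbital in the mutant (2 without array 2 of the mutant on sucrose). It gave 0 to 11 and 0 to 3 in wild type, 0 to 14 and 0 to 8 for the genotype on sucrose, and 0 to 19 and 0 to 2 for the mean effect, with 11, 3, 14, 8 and 19 reached without array 3 of wild type on sucrose.

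In 1072 recomputed medians, each median moved by less than the spread between arrays, yet single arrays moved some by over 1.5 times. That mark is loose, since an array left out is itself part of the spread, and a change of sign can pass it. The paralog median for the genotype on sucrose went from 0.06 to -0.20 without array 3 of the mutant on sucrose. With array weights the primary median for phenobarbital in the mutant was -0.051, and the paralog median was -0.17 for the genotype on phenobarbital, 0.021 for it on sucrose, -0.24 for the difference between the phenobarbital effects and -0.47 for phenobarbital in wild type. Estimation of the weights stopped before it converged. Of the single member values under all settings, 19 became called, 5 moved by at least the pooled SD of the gene between arrays, and 1172 moved by less. Some of the 1172 changed sign. COX6AL2 for phenobarbital in wild type went from -0.12 to 0.30 without array 2 of wild type on sucrose.

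Arrays of the same replicate number were taken as pairs for the genotype comparison on phenobarbital alone: over all groups 7 of 18 same-number pairs correlated above 0.1 in their deviations, from -0.712 to 0.695, and 5 of 12 arrays correlated best with their own number. The block on those 2 groups called 6 members, 2 of them at 1.5-fold, and 0 without any 1 pair. With the replicate number as a block over all 12 arrays, 0 members were called in every comparison. No depth exists for arrays, and the dim members (ND-51L1, ND-51L2, ATPsynbetaL, UQCR-11 and ND-B12) have levels that are bounds.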

Other observations

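Several subunits have further probe sets. The second probe set of COX7C, with a mean log2 intensity of 8.11, gave a phenobarbital change in the mutant of -0.86 ± 0.32 (SE) and a difference between mutant and wild type on sucrose of 0.09 ± 0.32, where the brighter probe set of COX7C gave -0.17 and -0.28. The second probe sets of ATPsyngamma and ATPsynbeta gave differences on sucrose of -0.41 ± 0.12 and -0.29 ± 0.13, where the brighter ones gave -0.33 and -0.42. The sources used here do not say which transcripts each set detects.

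The 3 subunit genes that share a probe set with another gene were lower in the mutant on sucrose too, by -0.41 ± 0.11 for the set of ATPsynG and beat-Vb, -0.28 ± 0.09 for that of COX6B and CG18809, and -0.32 ± 0.10 for that of ND-AGGG and CG40472. None was called by limma.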
